A study of Homo sapiens with 6 samples.

Results

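Splicing factors and hnRNP proteins were followed as a group of 62 genes in K562 cells, a human leukemia line of erythroid character. The members were chosen by gene symbol alone. They are the rows named HNRNP, SRSF, SF3A, SF3B, SNRP, PRPF, U2AF or PTBP with their letter or number, without 8 symbols of pseudogenes, out of 16938 rows in the table of CTR and CEBPA. PTBP2 and PTBP3 end like pseudogene symbols, but they are annotated as protein coding and were kept. Genes of these families without a row were not analysed here. The 6 samples were 2 replicates each of 3 stable cell lines made with a PiggyBac transposon. CEBPA cells carry Tet-inducible wild-type C/EBPα, the transcription factor of granulocyte development, P30 cells carry its p30 isoform, which lacks an N-terminal part with transactivation activity, and CTR cells carry the empty vector. All lines, CTR included, were kept for 48 h in doxycycline at 200 ng/ml to induce the transgene, and no culture without it was among the samples. The authors' blot legend names both the full-length form and p30 for induced CEBPA cells, so CEBPA vs P30 need not compare single isoforms. Whether each line is 1 clone or a pool is not given in the sources used here.

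The values are FPKM, fragment counts scaled to the length of the transcript and to the number of mapped fragments, so that genes can be compared in level. For each gene the files give 1 value per group that pools both replicates. These values hold no spread between replicates, so no test and no replicate check is given for any value below, and the depth of each sample cannot be read from them. Changes are differences of log2(FPKM + 1), which understates the change of low genes. Where 3 values in FPKM follow a gene with no group named, they are for CTR, P30 and CEBPA in this order. A change of 1.5-fold, 0.58 on this scale, was used to count the larger differences, and a 1.5-fold change in one pooled pair is a description and not a significant difference. The label of the cells was checked on marker genes. Summed over the 8 erythroid markers with a row, levels were 1923 FPKM for CTR, 1289.9 for P30 and 726 for CEBPA. The 8 granulocyte markers with a row summed to 7.43, 46.4 and 10051 FPKM. The 6 monocyte markers summed to 48.9, 53.0 and 1840.3 FPKM, of which the lysozyme gene LYZ made up 45.5, 47.6 and 1781, and the 5 lymphocyte markers to 15.7, 15.9 and 7.67. No marker with a row was listed at 0 in any group. S100A8, S100A9 and S100A12 made up 9963 FPKM of the granulocyte sum in CEBPA. ITGAM went another way, with 2.59, 14.3 and 2.43 FPKM, and LTF reached 2.28 FPKM in CEBPA. Fewer cells of a type and less RNA per cell cannot be told apart in such bulk RNA.

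Splicing removes introns from the primary transcript. The spliceosome is built from small nuclear ribonucleoproteins (snRNPs), which recognise the splice sites, join as a U4/U6.U5 tri-snRNP and are rearranged for catalysis. Each holds a small nuclear RNA with some proteins of its own, and most also hold a ring of Sm proteins. SR proteins bind exons through an RNA recognition motif and mostly favour the use of nearby splice sites, whereas hnRNP proteins coat the nascent transcript and often oppose it. Both kinds act in a dose-dependent way, and mutations of SF3B1 and U2AF1 are frequent in myeloid neoplasms.

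Nearly all members were abundant. The median member had 109 FPKM in CTR against 116 in P30 and 89.1 in CEBPA, where the median of all 13670 genes compared across the 3 groups was 11.6, 12.1 and 12.3 FPKM. In CTR the median member stood above 93.2% of these genes, 60 members exceeded 10 FPKM and 34 exceeded 100 FPKM, and no member was listed at 0 in any group. PRPF40B was the lowest, with 3.46, 3.20 and 2.55 FPKM. The highest row was HNRNPH2, with 3326, 3181 and 3043 FPKM. On the genome the readthrough gene RPL36A-HNRNPH2 overlaps it on the same strand, and neither this gene nor the ribosomal protein gene RPL36A has a row of its own. The level of HNRNPH2 is therefore uncertain. Next came HNRNPA1, a major hnRNP that shuttles between nucleus and cytoplasm, with 1845, 2002 and 1313 FPKM. The members together held 2.25% of all summed FPKM in CTR against 2.28% in P30 and 2.10% in CEBPA. Without HNRNPH2 the shares were 1.75%, 1.80% and 1.61%.

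**Figure D1:**
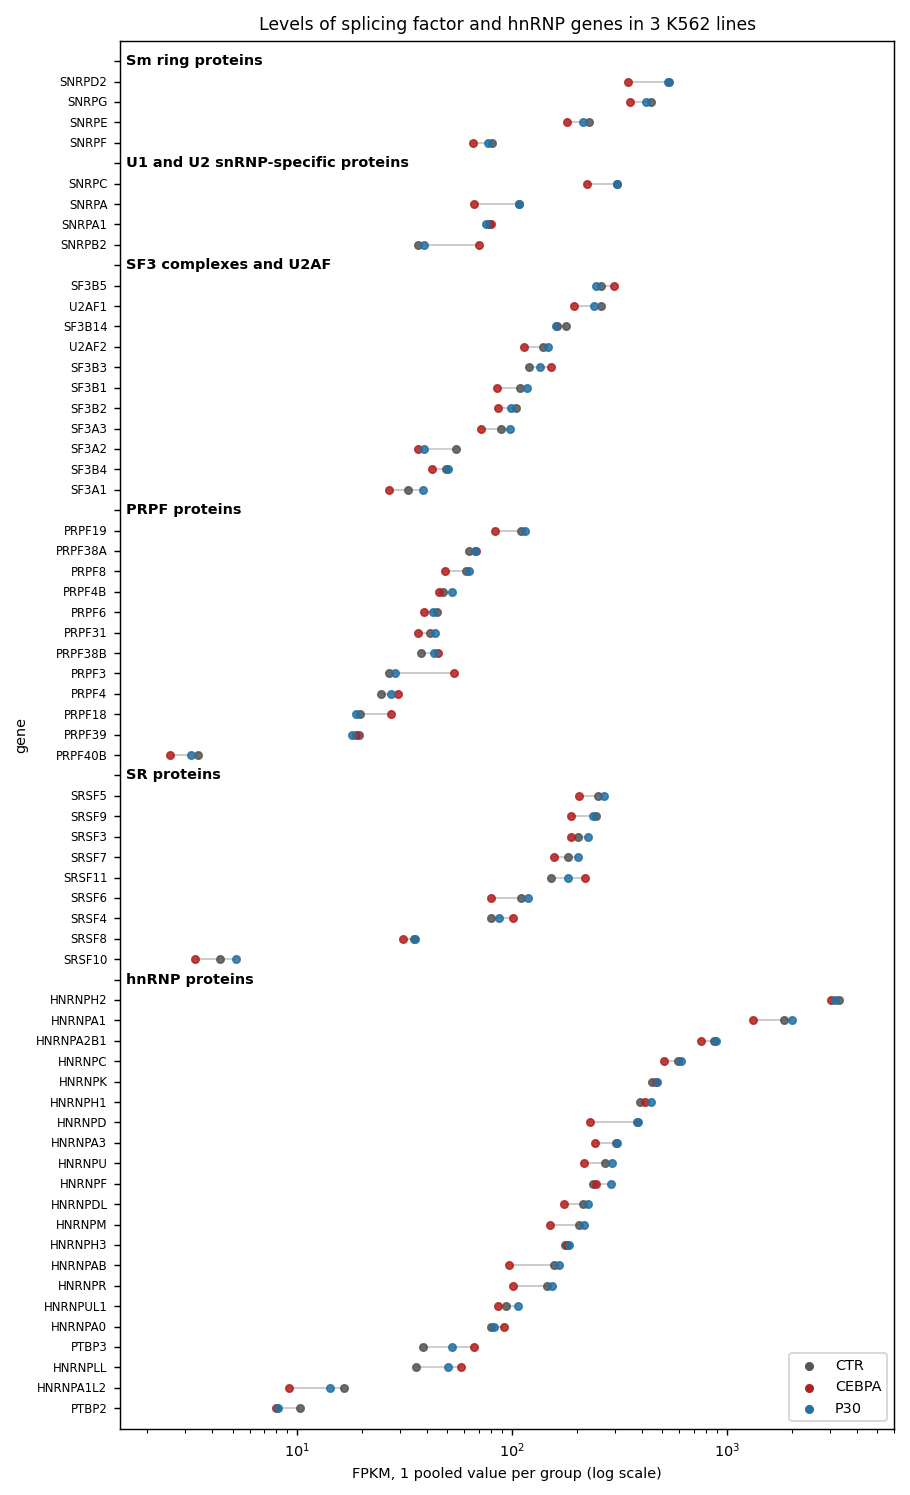
FPKM of the members on a log axis, ordered by role and by level in CTR, with 1 member not shown. Each point is the pooled value of 1 group, CTR, CEBPA or P30, and grey lines join the points of a gene. HNRNPH2 is at 3326 FPKM in CTR and PRPF40B at 3.46, and over all 62 members CEBPA is the lowest of the 3 groups for 42.

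The members were moderately lower in CEBPA than in both other groups. Higher in CEBPA than in CTR were 18 of the 62 members and lower 44 (71.0%, all genes 50.5%, genes above 10 FPKM 55.3%). The median change was -0.22 on the log2 scale, beside -0.01 over all 13673 genes compared and -0.10 over the 8226 genes above 10 FPKM, a set nearer to the members in level. Against P30, 46 members were lower in CEBPA (74.2%, all genes 52.1%, genes above 10 FPKM 58.2%) and 16 higher. The median of the members was -0.25 beside -0.04 over all 13569 genes and -0.12 over those above 10 FPKM. Both comparisons use the same CEBPA libraries and are not independent. Rescaling the groups to equal sums of FPKM moved the median of all genes in CEBPA vs CTR from -0.01 to 0.10 and that of the members to -0.11. The distance of the members to all genes was -0.21 before and after. It could hardly change, since a single factor per group shifts nearly all log2 values alike. The direction was the same under every scaling tried for 59 of the 62 members in CEBPA vs CTR, and it turned under equal sums for PRPF39, PRPF4B and SRSF3.

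The range of the changes was narrow. Changes within 1.5-fold were seen in CEBPA vs CTR for 53 of 62 members (85.5%), beside 57.5% of all genes and 59.7% of the genes above 10 FPKM. The spread across members, as a scaled median absolute deviation, was 0.27 beside 0.73 over all genes. At least 1.5-fold lower were 5 members, HNRNPA1L2, HNRNPD, HNRNPAB, SNRPA and SNRPD2, or 8.06% where 18.6% of all genes were. At least 1.5-fold higher were 4 members, PRPF3, SNRPB2, PTBP3 and HNRNPLL, or 6.45% where 24.0% of all genes were. Both shares were below the background. With the groups rescaled to equal sums, 2 members were lower by this measure, HNRNPA1L2 and HNRNPD, and 5 higher, with SRSF11 as the additional one. No member differed 2-fold on this scale in any pair, although the plain ratio of FPKM of PRPF3 was 2.01 in CEBPA vs CTR. Of all genes 21.0% differed 2-fold in CEBPA vs CTR, and 18.9% did when CEBPA was set against P30. For P30 vs CTR it was 1.63%. In CEBPA vs P30, 7 members were at least 1.5-fold lower (11.3%, all genes 17.8%) and 2 at least 1.5-fold higher (3.23%, all genes 22.3%). The 7 were the 5 named for CTR with HNRNPA1 and HNRNPR, and the 2 were PRPF3 and SNRPB2. After rescaling to equal sums these counts were 2 and 3. In P30 vs CTR no member was 1.5-fold higher or lower, where 2.69% and 2.63% of all genes were.

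**Figure D2:**
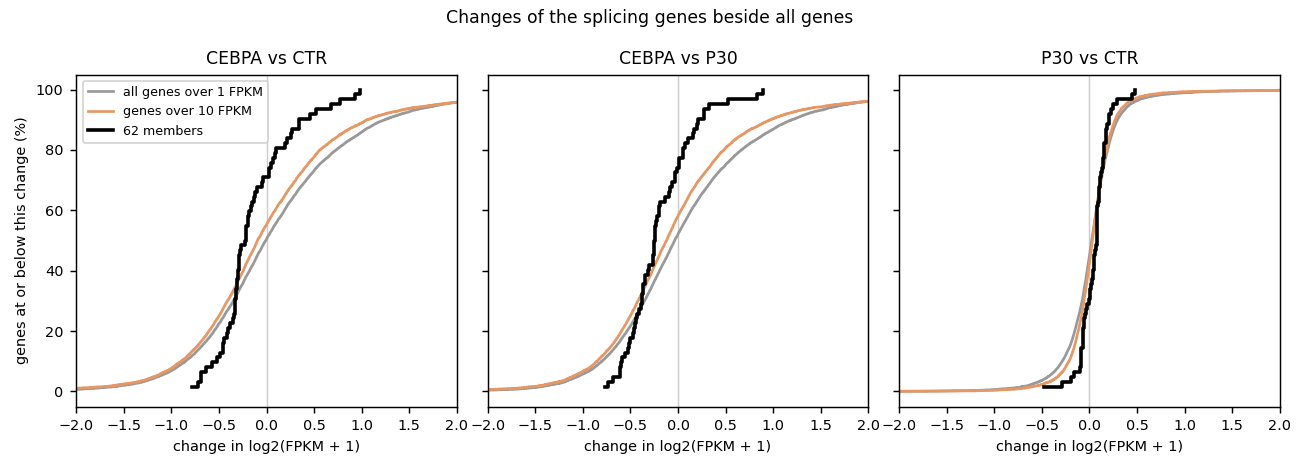
Cumulative share of genes (y axis, percent) at or below a change in log2(FPKM + 1) (x axis, cut at -2 and 2), for the 62 members, all genes over 1 FPKM and genes over 10 FPKM, in each pair of groups. In both comparisons with CEBPA the curve of the members is steeper and its upper part lies to the left of the others, with medians of -0.22 and -0.25, and in P30 vs CTR all members lie between -0.48 and 0.48.

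Across the 3 groups, CEBPA held the lowest value for 42 of 62 members (67.7%), beside 46.7% of all genes and 53.0% of the genes above 10 FPKM. CTR held it for 15 members and P30 for 5. The highest value was in P30 for 32 members (51.6%), beside 28.1% of all genes and 32.3% of those above 10 FPKM, and in CTR for 16 and in CEBPA for 14. The order with P30 highest and CEBPA lowest was the most frequent, with 28 members (45.2%, all genes 22.3%), but it was not that of most members. CTR was highest and CEBPA lowest in 14 members (22.6%, all genes 24.3%), as in all 4 Sm ring genes. In 11 members CEBPA was highest and CTR lowest (17.7%, all genes 27.1%). Proliferation markers moved with the members. Their sum was 2009.8, 2199.8 and 1395 FPKM. In CEBPA 17 of 20 were lower than in CTR (all genes 50.5%), with a median change of -0.66. At least 1.5-fold lower were 11 of them (all genes 18.6%). The part of proliferation, and of the granulocyte program, in the levels of the splicing genes was not tested. Across members, the change in CEBPA vs CTR and the mean level over the groups had a Pearson's r of -0.17 (62 genes, all from the same libraries). Across all 13670 genes r was -0.26.

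The Sm ring proteins, which form the common core of most spliceosomal snRNPs, were the most uniform set. All 4 with a row were lower in CEBPA than in CTR (all genes 50.5%), with a median change of -0.33. This held under each scaling tried. SNRPD2 had 539 FPKM in CTR against 529 in P30 and 346 in CEBPA, a change of -0.64 against CTR and -0.61 against P30. SNRPG had 440, 419 and 354 FPKM, and SNRPE had 228, 215 and 179.9. SNRPF was the lowest of them, with 80.8, 77.4 and 65.8 FPKM. P30 was slightly below CTR for each of the 4 (all genes 44.9%), with changes of -0.03 to -0.09 on the log2 scale. Together they took 0.195% of all FPKM in CTR against 0.186% in P30 and 0.155% in CEBPA. SNRPD2 (ENSG00000125743) lies on the minus strand of chromosome 19, 46190718 to 46195827 in GRCh37. The other proteins of the ring were not analysed here.

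The proteins that belong to 1 snRNP went separate ways. SNRPA is the A protein of the U1 snRNP, which binds the 5′ splice site, and SNRPB2 is its close relative, the B″ protein in the U2 snRNP, which binds the branch point. SNRPA had 107 FPKM in CTR, as in P30 with 107, and 66.5 in CEBPA, a change of -0.68 against either group. SNRPB2 had 36.4 FPKM in CTR against 39.0 in P30 and 70.3 in CEBPA, a change of 0.93 against CTR and 0.83 against P30. The ratio of SNRPB2 to SNRPA was 0.339 in CTR, 0.364 in P30 and 1.06 in CEBPA, so that SNRPB2 was above SNRPA in CEBPA and below it in CTR and P30. Ratios of FPKM within a group do not depend on how groups are scaled. SNRPA1, the A′ protein that binds SNRPB2 in the U2 snRNP, differed little with 78.3, 75.9 and 79.7 FPKM. SNRPC, the C protein that steadies the pairing of U1 with the splice site, followed SNRPA with 306, 307 and 223 FPKM, a change of -0.46 in CEBPA vs CTR. SNRPA (ENSG00000077312) lies on the plus strand of chromosome 19, 41256542 to 41271294, and SNRPB2 (ENSG00000125870) on the plus strand of chromosome 20, 16710606 to 16723209.

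Promoter sequences are shown for this pair and for HNRNPAB and HNRNPLL, described further on, as examples of members that were lower (SNRPA, HNRNPAB) and higher (SNRPB2, HNRNPLL) in CEBPA. Each is the 250 bases before the annotated start, on the strand of the gene, from RefSeq on GRCh38.p14. Capitals mark CCAAT, the CCAAT box, or its reverse complement. They do not mark the letters shared by many C/EBP binding sites, which are treated after the sequences.
SNRPA, chr19:40750953-40751202, plus strand: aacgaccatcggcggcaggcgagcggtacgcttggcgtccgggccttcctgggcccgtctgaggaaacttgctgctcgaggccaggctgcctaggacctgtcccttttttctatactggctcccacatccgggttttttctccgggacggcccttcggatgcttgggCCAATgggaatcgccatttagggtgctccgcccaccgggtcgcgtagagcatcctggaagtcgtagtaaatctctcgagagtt
HNRNPAB, chr5:178204283-178204532, plus strand: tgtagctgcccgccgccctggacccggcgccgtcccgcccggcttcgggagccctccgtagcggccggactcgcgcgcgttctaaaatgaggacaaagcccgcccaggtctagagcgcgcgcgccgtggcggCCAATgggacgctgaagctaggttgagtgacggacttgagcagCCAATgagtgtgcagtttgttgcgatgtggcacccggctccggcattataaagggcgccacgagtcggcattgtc
SNRPB2, chr20:16729776-16730025, plus strand: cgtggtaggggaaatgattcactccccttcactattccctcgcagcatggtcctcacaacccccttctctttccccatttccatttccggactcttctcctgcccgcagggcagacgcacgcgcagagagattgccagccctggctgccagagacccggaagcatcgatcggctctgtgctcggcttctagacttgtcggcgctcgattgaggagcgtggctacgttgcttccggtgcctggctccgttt
HNRNPLL, chr2:38602929-38603178, minus strand: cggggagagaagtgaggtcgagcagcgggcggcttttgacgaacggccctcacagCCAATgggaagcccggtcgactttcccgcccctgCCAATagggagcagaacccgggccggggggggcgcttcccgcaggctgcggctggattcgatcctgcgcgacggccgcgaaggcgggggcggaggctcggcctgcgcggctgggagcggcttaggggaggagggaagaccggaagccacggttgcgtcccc
SNRPA holds 1 CCAAT box, HNRNPAB and HNRNPLL hold 2 each, and SNRPB2 holds none, so that the box was found on both sides of the change. RefSeq windows from 250 bases before to 50 after the start, were at hand for 57 of the 62 members, 75 windows in all. PRPF3, PRPF39, SF3B3 and HNRNPA1 were among those with none. CCAAT was found on either strand in 41.3% of the member windows, beside 34.6% of all 35116 windows. The letters TTNNGNAA, shared by many C/EBP binding sites, are another motif than CCAAT. They occurred on either strand in 18.7% of the member windows and in 36.8% of all. None of the promoter sequences shown holds TTNNGNAA or its stricter form, the palindrome TTGCGCAA. The palindrome TTGCGCAA occurred in 0 of the 75 member windows and in 0.151% of all windows. The median GC content was 62% in the member windows and 58.7% in all. A match of letters is not a binding site, and these windows say nothing on distant elements.

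The SF3 complexes are parts of the U2 snRNP that clamp the branch point, and U2AF binds the end of the intron before U2 arrives. Of these 11 genes, 9 were lower in CEBPA than in CTR (all genes 50.5%) and 2 higher, with a median of -0.29. None was past 1.5-fold. SF3B1, which contacts the branch point, had 109 FPKM in CTR against 117 in P30 and 85.1 in CEBPA. U2AF1, the subunit that reads the AG of the splice site, had 258, 241 and 194 FPKM, and its partner U2AF2, which reads the polypyrimidine tract, had 139, 147 and 114. All 3 were lowest in CEBPA, with changes of -0.29 to -0.41 against CTR. SF3B3 and SF3B5 went the other way. SF3B3 had 119, 135 and 152 FPKM and SF3B5 had 259, 244 and 296 in CTR, P30 and CEBPA, changes of 0.34 and 0.19 in CEBPA vs CTR. SF3A2 was the member whose level in P30 was farthest below CTR. It had 54.8 FPKM in CTR against 39.0 in P30 and 36.6 in CEBPA, changes of -0.48 in P30 and -0.57 in CEBPA against CTR, so that P30 and CEBPA were close to each other. Its partners SF3A1, with 32.7, 38.4 and 26.6 FPKM, and SF3A3, with 88.5, 97.5 and 71.4, were highest in P30. The row SF3B14 is the gene now named SF3B6, which touches the branch adenosine, and had 179, 159.6 and 161 FPKM.

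**Figure D3:**
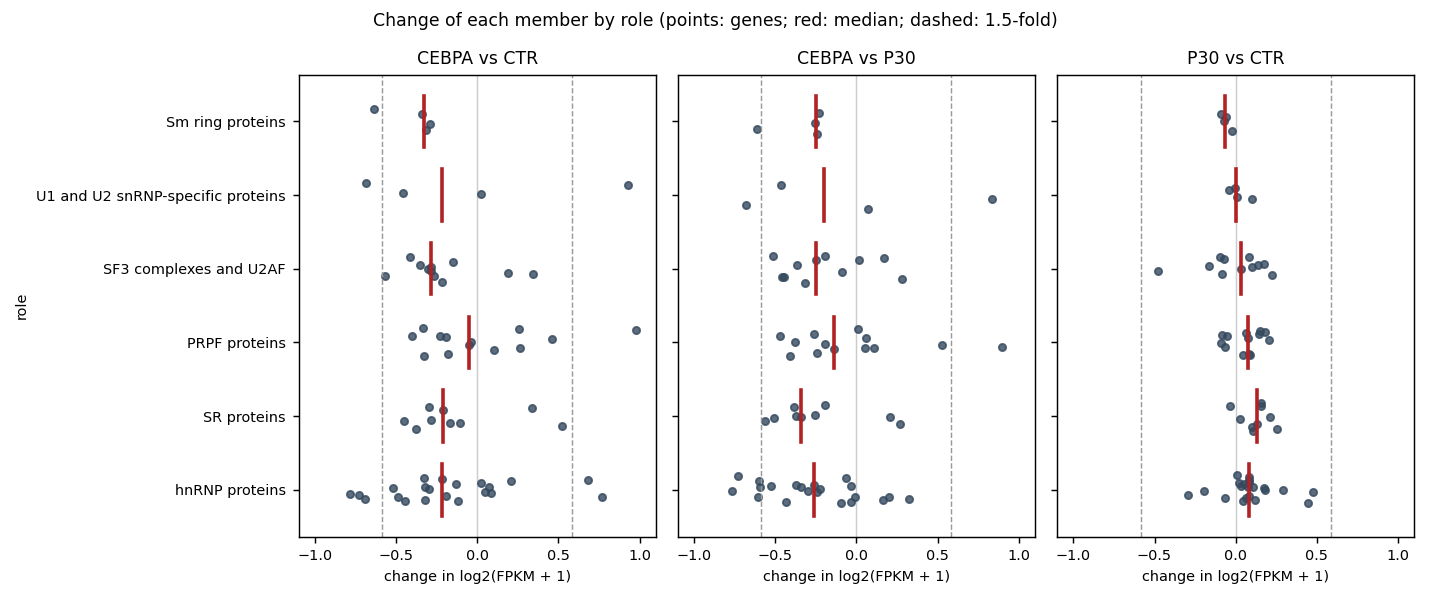
Change in log2(FPKM + 1) of each member (points) by role, for each pair of groups. Red lines are medians, and dashed lines mark 1.5-fold. In CEBPA vs CTR all 4 Sm ring proteins lie below 0 with a median of -0.33, while SNRPB2 at 0.93 and PRPF3 at 0.98 stand far to the right of their sets. In P30 vs CTR no point reaches the dashed lines.

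The PRPF proteins, named after yeast mutants in precursor mRNA processing, were the set with the smallest shift. In CEBPA vs CTR 8 of 13 were lower (all genes 50.5%, genes above 10 FPKM 55.3%) and 5 higher, with a median of -0.05. After rescaling to equal sums 6 were lower, so that the majority of the set turned with the scaling. PRPF3, which holds the U4/U6 part of the tri-snRNP together, had 26.8 FPKM in CTR against 28.4 in P30 and 53.7 in CEBPA. Its change was the highest of any member on the log2 scale, 0.98 against CTR and 0.90 against P30. PRPF4, its direct partner, had 24.5, 27.3 and 29.5 FPKM, and PRPF31, which binds the same particle, had 41.5, 43.9 and 36.5. The ratio of PRPF3 to PRPF31 was 0.645 in CTR, 0.647 in P30 and 1.47 in CEBPA. PRPF3 (ENSG00000117360) lies on the plus strand of chromosome 1, 150293928 to 150325709. PRPF18, needed for the second step of splicing, also stood out, with 19.7, 18.7 and 27.4 FPKM, a change of 0.46 against CTR and 0.53 against P30. PRPF8, the scaffold of the active site, was lower with 61.3, 63.2 and 48.5 FPKM, as was PRPF19, the ubiquitin ligase of the complex that activates the spliceosome, with 110.1, 115 and 83.0. The other 7 PRPF members changed by -0.33 to 0.26 in CEBPA vs CTR. PRPF40B was at the low end of these, although at 2.55 to 3.46 FPKM, and PRPF38B at the high end, with 37.5, 43.4 and 45.2 FPKM.

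Of the 9 SR proteins, 7 were lowest in CEBPA (all genes 46.7%), and none reached 1.5-fold on this scale in any pair. After rescaling to equal sums 6 were below CTR, as SRSF3 turned. The median change of CEBPA was -0.21 against CTR and -0.34 against P30. SRSF6 was lower by the most, with 109, 118 and 79.7 FPKM, a change of -0.45 against CTR. SRSF9 had 245, 239 and 188 FPKM and SRSF5 had 249, 268 and 205. SRSF3, the smallest SR protein, differed less, with 202, 224 and 188 FPKM. SRSF4 and SRSF11 were higher. SRSF11 had 152, 181 and 219 FPKM, a change of 0.52 in CEBPA vs CTR, and SRSF4 had 79.4, 86.9 and 101, a change of 0.34. SRSF4, SRSF5 and SRSF6 have the same domain layout, and the ratio of SRSF4 to SRSF6 was 0.725 in CTR, 0.736 in P30 and 1.26 in CEBPA. In P30 vs CTR 8 of 9 SR proteins were higher (all genes 55.1%), all by less than 0.26, with a median of 0.13. SRSF10 was by far the lowest of the set with 4.35, 5.19 and 3.36 FPKM. Its plain ratio of FPKM in CEBPA vs P30 was 0.647, and with a pseudocount of 0.1 its change was -0.61, past 1.5-fold.

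**Figure D4:**
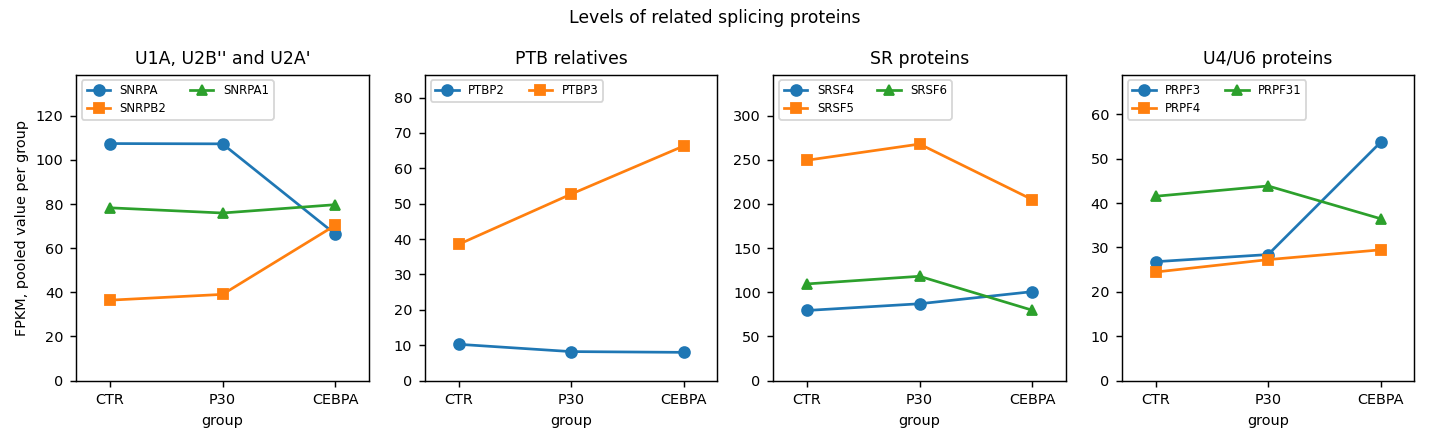
FPKM (y axis from 0, pooled value per group) of related splicing proteins in CTR, P30 and CEBPA. Lines only join the points of a gene. SNRPA is at 66.5 FPKM and SNRPB2 at 70.3 in CEBPA, PTBP3 is highest and PTBP2 lowest in CEBPA, SRSF4 passes SRSF6, and PRPF3 passes PRPF31.

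The hnRNP proteins, with the PTB proteins counted among them, were the largest set with 21 genes. In CEBPA vs CTR 14 were lower (all genes 50.5%) and 7 higher, with a median of -0.21. In CEBPA vs P30 18 were lower (all genes 52.1%), and 13 after rescaling to equal sums. HNRNPD, or AUF1, which binds AU-rich elements and speeds the decay of short-lived mRNAs, had 381 FPKM in CTR against 383 in P30 and 230.3 in CEBPA. Its change was -0.73 against both, and it was 1.5-fold lower under each scaling. Its relative HNRNPAB had 157, 165 and 96.7 FPKM, changes of -0.69 and -0.77. HNRNPDL, another relative near HNRNPD on the minus strand of chromosome 4, was closer to level with 214, 226 and 174 FPKM and a change of -0.29. HNRNPD (ENSG00000138668) spans 83273651 to 83295656 and HNRNPDL (ENSG00000152795) 83343718 to 83351615. HNRNPA1 differed by -0.49 from CTR and by -0.61 from P30. HNRNPA1L2, a retrocopy of HNRNPA1, had 16.5, 14.3 and 9.13 FPKM, a change of -0.79, the lowest of all members. As a near-identical copy, at 0.00893 times the level of HNRNPA1 in CTR, it is uncertain, since reads of one may be assigned to the other. HNRNPR, which has an acidic N-terminal domain, had 146, 154 and 101 FPKM, and HNRNPM had 205, 217 and 150.3.

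Of the other abundant hnRNP genes, HNRNPU had 269, 291 and 215 FPKM and HNRNPA3 had 303, 307 and 242. Both changed by -0.32 in CEBPA vs CTR. Those that follow were near the median of the set or closer to 0. HNRNPK, which binds C-rich RNA, had 445, 470.4 and 468 FPKM. HNRNPC, which binds U-rich tracts, had 591, 611 and 509, and HNRNPA2B1 had 867, 887 and 759 FPKM. Of the H and F group, which binds runs of G, HNRNPH1, HNRNPH3 and HNRNPF were highest in P30 and lowest in CTR. HNRNPH1 had 392, 443 and 416 FPKM, HNRNPH3 had 176, 184 and 179, and HNRNPF had 237, 289.8 and 244. Only HNRNPH2, the row of uncertain level, was highest in CTR and lowest in CEBPA, with a change of -0.13 in CEBPA vs CTR. For HNRNPF the change in P30 vs CTR was 0.29. The changes of HNRNPK, HNRNPH1, HNRNPH2, HNRNPH3, PTBP2 and SF3A2 in CEBPA vs P30, between -0.09 and -0.01, lost or turned their sign under another scaling.

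HNRNPLL and PTBP3 were higher in P30 and CEBPA than in CTR. HNRNPLL, known for directing the alternative splicing of the CD45 transcript in lymphocytes, had 35.8 FPKM in CTR against 50.2 in P30 and 57.9 in CEBPA. Its change from CTR was 0.48 in P30 and 0.68 in CEBPA. PTBP3, a PTB protein that binds polypyrimidine tracts and is expressed in blood cells, had 38.5, 52.7 and 66.3 FPKM, changes of 0.44 and 0.77. Both changes of a gene use the same CTR libraries. PTBP2, the PTB protein best known from neurons, was lower in both lines, with 10.2, 8.18 and 7.97 FPKM. The ratio of PTBP3 to PTBP2 was 3.76 in CTR, 6.44 in P30 and 8.32 in CEBPA. HNRNPLL (ENSG00000143889, chromosome 2, minus strand, 38789111 to 38830728) and SRSF7 (38970741 to 38978636, same strand) are near each other, yet SRSF7 had 181, 202 and 156 FPKM. PTBP3 (ENSG00000119314) lies on the minus strand of chromosome 9, 114979996 to 115095944. Its gene and those of the other members past 1.5-fold are annotated as protein coding.

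In P30 vs CTR, differences were small in all sets. Of the 62 members 43 were higher in P30 (69.4%, all genes 55.1%), the median change was 0.08 beside 0.02 over all genes, and the spread across members was 0.11 beside 0.20. Under the other scalings 40 to 43 were higher. The 5 highest changes were HNRNPLL (0.48), PTBP3 (0.44), HNRNPF (0.29), SRSF11 (0.25) and SF3A1 (0.23). The 5 lowest were SF3A2 (-0.48), PTBP2 (-0.29), HNRNPA1L2 (-0.19), SF3B14 (-0.16) and U2AF1 (-0.10). Of the other members, none differed by more than 0.21. HNRNPD, SNRPA and SNRPC, clearly lower in CEBPA, were within 0.01 of CTR in P30.

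Splicing genes that the rule on names leaves out were compared on lists of 111 genes, 97 of which had a row. In CEBPA vs CTR 7 of the 97 were at least 1.5-fold lower (7.22%, all genes 18.6%) and 11 at least 1.5-fold higher (11.3%, all genes 24.0%). Their median was -0.11, and 0.00 after rescaling to equal sums. Of the 20 other hnRNP-like and SR-like proteins 17 were lower in CEBPA than in CTR (all genes 50.5%), with a median of -0.36. After rescaling to equal sums 13 were lower. DAZAP1, an RNA-binding protein with hnRNP-like domains, was among them, with 115, 120.0 and 78.5 FPKM. SREK1, an SR-like protein, was the exception past 1.5-fold, with 43.0, 49.1 and 89.0 FPKM. Of the 37 other spliceosome components 24 were lower (all genes 50.5%, genes above 10 FPKM 55.3%), with a median of -0.11. After rescaling to equal sums 18 were lower, with a median of 0.00. SNRNP25, a protein of the minor spliceosome, had 77.8, 79.5 and 35.3 FPKM and SNRNP40, a U5 protein, had 69.9, 66.3 and 40.0, whereas SLU7, a second-step factor, had 21.1, 26.1 and 46.3 and CTNNBL1 had 25.0, 25.9 and 40.1. TXNL4A, with 58.2, 52.3 and 35.6 FPKM, and LSM7, with 179, 181 and 119, were the other genes of this list at least 1.5-fold lower. The median was -0.24 for the 6 genes of the exon junction complex and -0.03 for the 12 of Sm ring assembly. In the exon junction complex the changes ran from -0.53 for MAGOHB to 0.46 for RBM8A.

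Of the regulators of alternative splicing 10 of 16 were higher in CEBPA than in CTR under each scaling (all genes 49.5%), with a median of 0.18. Lower in CEBPA than in P30 were 9 of 16, near the share of all genes (52.1%), with a median of -0.08. After rescaling to equal sums 7 were lower than in P30. At least 1.5-fold higher than CTR were 5 (31.2%, all genes 24.0%) and at least 1.5-fold lower 2 (12.5%, all genes 18.6%). ESRP1, an epithelial splicing regulator, had 0.0492, 0.0505 and 32.3 FPKM, a change of 4.99. MBNL3 had 1.57, 2.88 and 9.73 FPKM, MBNL2 6.87, 7.02 and 16.7 and RBM47 3.10, 5.36 and 9.49. CELF2 was highest in P30, with 3.04, 14.7 and 8.76 FPKM, and its change of 1.96 was the largest in P30 vs CTR on these lists. RBM38, an RNA-binding protein of erythroid cells, had 58.2, 39.9 and 33.5 FPKM, and TIAL1 had 71.7, 68.2 and 45.7. In P30 vs CTR, RBM47 (0.63) and MBNL3 (0.59) were the other genes of the lists at least 1.5-fold higher. With CELF2 these were 3 of the 96 genes compared (3.1%), near the share of all genes (2.69%). All 3 were among the 15 regulators of alternative splicing compared. None of the 96 was 1.5-fold lower (all genes 2.63%). Among the kinases of SR proteins, SRPK1 had 53.6, 64.0 and 101 FPKM and CLK2 46.0, 47.3 and 24.7, in opposite directions in CEBPA. PRMT5, which methylates Sm proteins before their ring is assembled, had 114, 106 and 254 FPKM, a change of 1.15 in CEBPA vs CTR, and GEMIN5, which recognises the small nuclear RNA, had 12.2, 12.8 and 18.9. PRMT5 was thus higher where the 4 Sm ring genes were lower. Whether the proteins of these 4 are among those it methylates was not examined here. GEMIN2 had the lowest change among the genes of Sm ring assembly, -0.54, with 13.6, 13.9 and 9.05 FPKM.

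**Figure D5:**
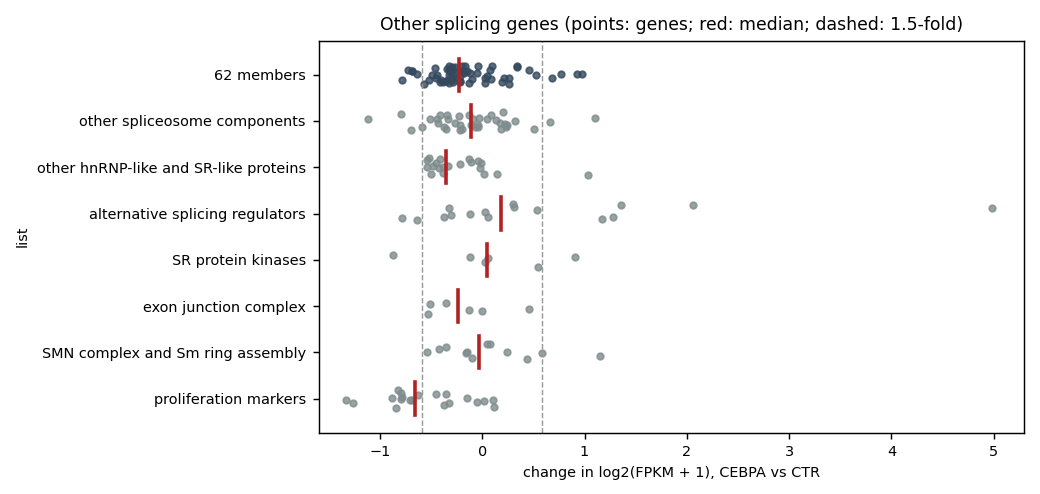
Change in log2(FPKM + 1) in CEBPA vs CTR (x axis) for the 62 members, the lists of other splicing genes and the proliferation markers. Points are genes, red lines medians, and dashed lines mark 1.5-fold. The median is -0.22 for the members, -0.36 for other hnRNP-like and SR-like proteins, 0.18 for alternative splicing regulators, with ESRP1 at 4.99, and -0.66 for the proliferation markers.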

How the data were processed

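RNA-seq of 6 samples, 2 for each of 3 lines (CTR, CEBPA, P30), was analysed. Libraries were stranded. An mRNA kit was used throughout, and for the first of 2 sequencing runs, on different instruments, ribosomal RNA had been depleted before. Pooled values cannot separate the runs. The authors aligned the reads to hg19 with TopHat 2.0.12, assembled them with Cufflinks 2.2.1 on Gencode 19 and estimated FPKM with Cuffdiff 2.2.1. The deposited FPKM are 1 value per gene and group in 3 tables, with replicates pooled, so depth and replicate spread cannot be read from them and no SD, interval or p-value was computed. The tests of the authors with Cuffdiff were not used here. Differences of log2(FPKM + 1) were computed among genes over 1 FPKM in at least 1 group of a pair. Comparisons over 3 groups used symbols that occur once. The values of members were identical between tables. Single values of 1 member, which stays in all counts and medians, are not reported here.

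The members, the lists and the genes named were chosen with earlier results of these data known. The rule for named genes was every member past 1.5-fold and the 5 largest rises and falls per pair, with the extremes of each role or list. Alternatives were a pseudocount of 0.1, centring on the median, equal sums of FPKM, no filter or 10 FPKM, 2-fold in place of 1.5-fold, summed symbols and genes listed in all 3 tables. Leaving out HNRNPH2 or HNRNPA1L2 was added after seeing the data. Positions are from Gencode on GRCh37, the build of hg19, in a later release than that of the authors, and promoters from RefSeq on GRCh38.p14. Python 3.11.15, pandas 2.3.3 and numpy 2.4.6 were used, and the counting was tested on simulated data.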

Additional observations from a re-analysis of the deposited data

How the results depend on the processing

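No paired analysis was possible because the files give 1 value per group with both replicates pooled, and for the same reason no replicate could be left out. The limits were a shift of 0.20 for log2 values, which is the spread of P30 vs CTR over all genes, a factor of 1.5 for counts and a factor of 1.1 for shares. Alternatives gave 226 values for 49 results, of which 214 lay inside the limits and 12 outside. As reversed 0 were counted, but a change of sign inside the limit was not counted as such. HNRNPD in P30 vs CTR, for example, went from 0.006 to -0.017 after centring. Dropping the filter, summing symbols or keeping genes of all 3 tables could not alter the changes of members. The limit of 0.20 is near the median change itself, -0.22 in CEBPA vs CTR, so that a shift to -0.11 lay inside it. So did a shift of the other splicing genes from -0.11 to 0.00. The tally therefore says little on how firm the small changes are. With 2-fold in place of 1.5-fold, 0 members were counted as higher or lower in either comparison with CEBPA, while 8 of the other splicing genes were higher and 1 lower in CEBPA vs CTR. Rescaling to equal sums left 2 members at least 1.5-fold lower in CEBPA vs CTR and 2 against P30, with 4 other splicing genes lower in CEBPA vs CTR. Centring on the median left 3 members lower in CEBPA vs P30. Under equal sums SNRPA, SNRPD2 and HNRNPAB were at -0.57, -0.52 and -0.58 in CEBPA vs CTR, beside 0.58 for 1.5-fold. Leaving out HNRNPH2 gave shares of 1.75% for CTR, 1.61% for CEBPA and 1.80% for P30. The median change of the members lay between -0.23 and -0.11 in CEBPA vs CTR. It was -0.26 to -0.12 against P30, and 0.05 to 0.08 for P30 vs CTR, and CEBPA was the lowest group for 37 to 42 members. Without values per replicate, small differences between CTR and P30 cannot be set against the error of the measurement.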

Other observations

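Of the 8 pseudogene symbols left out by the rule, HNRNPA1P16 was the highest and near the median of all genes. It had 11.1 FPKM in CTR against 11.2 in P30 and 16.8 in CEBPA. HNRNPCP1 had 8.84, 9.17 and 5.61 FPKM in the same order, and HNRNPA1P8 had 0.0143, 0.0646 and 1.74. HNRNPCP4, with 1.42 FPKM in CTR, and HNRNPLP2, with 1.47 in CEBPA, were the only other rows above 1 FPKM in any group. HNRNPA1P16 and HNRNPA1P8 were higher in CEBPA while HNRNPA1 was lower.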
